A study of Homo sapiens with 10 samples.

Results

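The comparison was ATXN2 knockdown against control in polysomal RNA of Meg01, a human megakaryoblastic leukaemia cell line. Its members were the 6 arrays of the series, out of 10, whose titles give gradient fractions 9 to 17. They were 3 arrays of cells carrying the control hairpin shc002 and 3 of cells carrying the hairpin sh95 against ATXN2, and each P number (P2, P4 and P5) pairs a control with a knockdown array. Cells of both groups were cultured with 10% fetal calf serum, given lentivirus (multiplicity of infection 10) and sorted for GFP 48 hours later, and their lysates were spun through 7% to 46% sucrose. The 4 other arrays hold RNA of fractions 1 to 8, the subpolysomal pool, under the numbers P1 and P3. A single hairpin against ATXN2 and a single cell line were used, and the sources used here do not tie P numbers to the experiments. Nothing in the labels ties every P number to a culture of its own, so p-values measure the spread between these arrays.

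ATXN2 encodes ataxin-2, an RNA-binding protein that associates with poly(A)-binding protein and with ribosome-bound and stored mRNAs. In a sucrose gradient an mRNA travels further the more ribosomes it carries, so the heavy fractions hold the mRNAs that are being translated by several ribosomes at once. The amount of an mRNA there reflects both how much of it the cell holds and how much of it is on polysomes, and these cannot be told apart within this pool.

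An array held 47323 probes, of which 18800 to 19369 lay above a background limit of 198 to 200 intensity units. Probes above it on at least 3 of the 6 arrays numbered 18790, and 14373 of these had a single gene symbol and represented 11016 genes, each by its brightest kept probe. All levels below are log2 intensities after quantile normalization over the 6 arrays, and all differences are knockdown minus control on that scale. As a check of the cell type, 8 of 15 megakaryocyte markers (13 on the array) were above background on all 6 arrays. Among them NFE2 read 12.16 to 12.66, ITGA2B 7.82 to 10.23 and GATA1 8.74 to 10.08. GP1BA at 8.04 to 8.24 and PPBP at 7.68 to 7.91 were as dim as the monocyte markers below, and PF4 was above background on none. Of 14 erythroid markers (12 on the array) 7 were above background on all 6, with the fetal globins HBG1 and HBG2 at 14.1 to 14.3 on every array. Of 11 monocyte and granulocyte markers 2 (CD14 and FCGR3B, at 7.67 to 8.10) were above it on all 6 arrays and MPO, ELANE, AZU1 and PRTN3 on none. Of 7 mast cell and basophil markers (6 on the array) 4 were above it on all 6, with HDC at 10.53 to 12.21 and FCER1A at 11.05 or above. Of 9 lymphoid markers (8 on the array) 1 was above it on all 6. The control array of P2 stood apart. Its highest deposited intensity was 140375 against 11164 to 16263 on the other 5. On that deposited linear scale its erythroid marker sum was 291611 intensity units against 26272 to 45353. Its mast cell and basophil marker sum, also as deposited, was 33177 against 6835 to 12240. After quantile normalization most of these markers did not stand apart there, with HBG1 and HBG2 at 14.1 to 14.3 on every array. HBB (10.85), HBE1 (11.84) and HDC (12.21) still read highest on the P2 control array. HBA2, ALAS2, KLF1, FCER1A, CPA3 and GATA2 did not. Beta-actin (ACTB) read 8.87 there and 13.12 to 13.61 on the other 5 arrays.

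ATXN2 read lower in knockdown than in control in each pair. In control it read 9.21 in P2, 10.78 in P4 and 9.71 in P5, and in knockdown 8.70, 8.71 and 8.66. The knockdown arrays lay close together (SD 0.03, n = 3) and below every control array, while the control arrays were spread out (SD 0.80, n = 3). The pair differences were -0.51, -2.07 and -1.05, with a mean of -1.21 (SE 0.34), which is 43.3% of control. Every SE given is the moderated one of limma's fit, which borrows the spread of all probes. It is not the SE of a gene's own 3 differences, and can be smaller where 1 pair stands out. The exact two-sided paired permutation test gave p = 0.25, the smallest p that 3 pairs allow, and limma's adjusted p was 0.87. Pair P4 decided much of the size, since without it the mean difference was -0.78. The array carries 1 probe for the gene.

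No probe passed the test of knockdown against control. limma with the P number as a block called 0 of 18790 probes (0.0%) at an adjusted p under 0.05, with a smallest adjusted p of 0.87, and 804 probes had an unadjusted p under 0.05. Without the block it also called 0, with 190 at that unadjusted level. Every gene difference below therefore stands as a measured value that did not pass the test, and genes are sorted by how their pairs behaved.

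The 3 pairs differed in how far they moved. The SD of the differences over the 11016 genes was 0.52 in P2, 0.23 in P4 and 0.40 in P5, and 777, 27 and 271 genes respectively differed by at least 1. Across genes, which are not independent replicates, the differences of P2 and P4 had a Pearson r of -0.07, those of P2 and P5 of 0.21 and those of P4 and P5 of -0.08. A gene was counted as keeping its direction when the difference had one sign in all 3 pairs, both after quantile normalization and as deposited. By that rule 1589 genes (14.4%) read higher and 1004 (9.11%) lower in all 3 pairs. Most of these differences were small in at least 1 pair, since 122 genes (1.11%) read higher and 71 (0.645%) lower by at least 0.25 in every pair. All 3 knockdown arrays lay above all 3 control arrays for 313 genes (2.84%) and below them for 144 (1.31%).

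Further probes bear on these directions. Of the 1589 genes that read higher, 364 had another kept probe, and for 106 of them (29.1%) at least 1 such probe also read higher in all 3 pairs. Over all 2731 genes with a further probe that share was 14.8%. Among the genes that read lower it was 86 of 254 (33.9%) against 15.6%. In the subpolysomal arrays, which the rule did not use, 24.6% of the genes higher in polysomal RNA read higher in both pairs and 27.8% lower, beside 25.2% and 26.3% of all genes. For the genes lower in polysomal RNA the shares were 27.0% higher and 27.3% lower.

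Among the genes that kept their direction, the 12 in each direction with the largest smallest-pair difference were taken, under all 3 scalings and above background on all 6 arrays. On the higher side CTPS1, which makes CTP from UTP, read 9.67, 9.62 and 9.82 in the controls, in the order P2, P4, P5, and 10.53, 10.17 and 10.33 with knockdown. The groups did not overlap, and the mean difference was 0.64 (SE 0.10). PFKP, the platelet-type phosphofructokinase of glycolysis, read 10.64, 11.11 and 10.70 in control and 11.61, 11.59 and 11.77 in knockdown, 0.84 higher (SE 0.15). HK1, a hexokinase at the entry to the same pathway, read 12.99, 13.22 and 13.52 in knockdown, above its controls by 1.99, 0.49 and 0.90 (mean 1.12, SE 0.34). The control of P2 was the low value here and 1 of 2 HK1 probes kept the direction, with a mean of 0.69 without pair P2.

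EIF4B, an initiation factor that helps the helicase eIF4A unwind mRNA leaders, read 9.68, 10.48 and 9.72 in control and 10.67, 10.96 and 10.46 in knockdown. Its groups overlapped because the P4 control lay above the P5 knockdown array, while the pair differences were 0.98, 0.48 and 0.74 (mean 0.73, SE 0.12). ITGA5, the alpha chain of the fibronectin receptor, differed by 1.38, 0.83 and 0.48, and the DNA helicase FBH1 read 9.36, 9.99 and 9.98 in control and 10.87, 10.50 and 11.23 in knockdown. L3MBTL2, a Polycomb-group chromatin protein, differed by 0.51, 0.54 and 0.81, and both of its probes kept that direction. The remaining genes of this side were RSL1D1, a nucleolar protein, the zinc finger gene ZNF512, LUZP1, the tyrosine-breakdown enzyme FAH and the helicase ASCC3, with means between 0.61 and 0.81. For ASCC3 only 1 of 3 probes kept the direction. limma's adjusted p was 0.87 for all 24 genes.

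On the lower side, YWHAH, the eta form of the 14-3-3 adaptor proteins, read 12.70, 12.33 and 12.53 in control and 10.82, 11.72 and 11.71 in knockdown. Its groups did not overlap, and the mean was -1.10 (SE 0.30) with all pairs and -0.71 without P2. NCK2, an adaptor that links tyrosine kinases to the actin cytoskeleton, read 9.73, 9.79 and 8.96 in control and 8.91, 8.57 and 8.36 in knockdown (mean -0.88, SE 0.15), and 1 of its 2 probes kept the direction. FAM32A read 11.73, 10.61 and 11.58 against 10.43, 10.10 and 10.42 (mean -0.99, SE 0.19). These genes share that no control array lay below a knockdown array.

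BASP1, a membrane-bound signalling protein, showed nearly the same difference in each pair, -0.67, -0.79 and -0.59 (mean -0.68, SE 0.08), although its level varied more between pairs than within them. The same held for PIAS4, a SUMO ligase (-0.48, -0.54 and -0.56), for IFITM1, an interferon-induced membrane protein (-0.68, -0.52 and -0.54), and for GAL, the precursor of galanin (-0.64, -0.66 and -0.54). RAMAC, the activating subunit of the mRNA cap methyltransferase, read 11.26, 9.63 and 9.91 in control and 8.89, 8.96 and 9.36 in knockdown, and both of its probes kept the direction. Its mean of -1.19 (SE 0.44) was -0.60 without P2. CDK2AP1 (mean -0.99, and -0.57 without P2), the ETS transcription factor ETV5 (-0.82) and the ribosomal protein gene RPL21 (-0.84) completed this side with ATXN2. The plots of levels and of pair differences show these genes array by array.

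**Figure D1:**
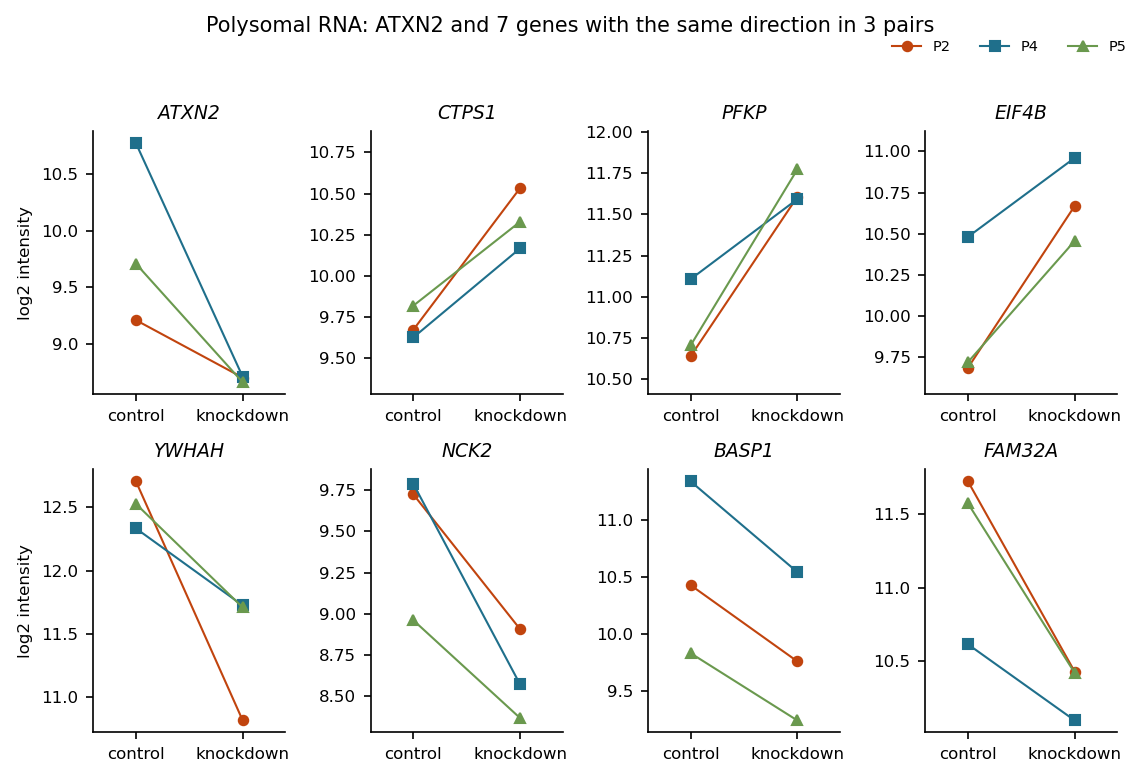
Log2 intensity of ATXN2 and 7 genes that kept their direction, in control and knockdown polysomal RNA. Each line joins the 2 arrays of a pair, and the y axes differ between genes and do not start at 0. The ATXN2 knockdown arrays read 8.66 to 8.71 although their controls ranged from 9.21 to 10.78.

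**Figure D2:**
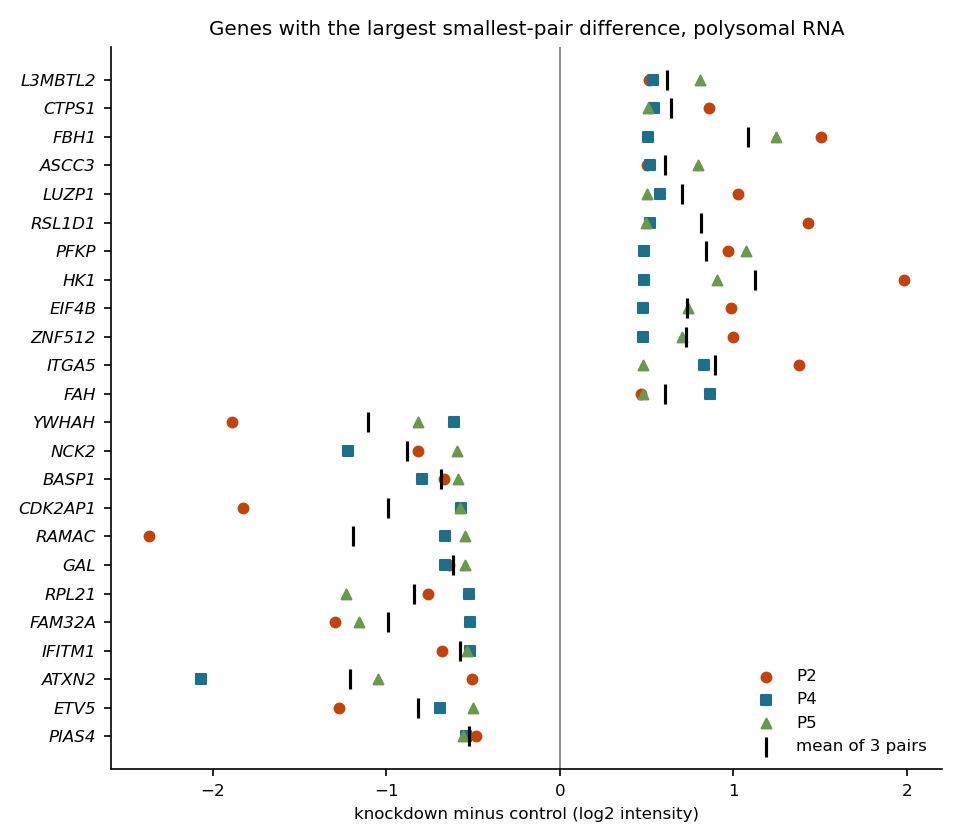
Knockdown minus control (log2 intensity) in pairs P2, P4 and P5 for the 12 genes per direction with the largest smallest-pair difference, with the mean of the 3 pairs as a black bar. The pair P2 points lie farthest out for HK1 and RAMAC, at 1.99 and -2.37, and the P4 point for ATXN2, at -2.07.

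Of the ataxin-2 and poly(A)-binding partners, 15 of 20 listed genes were measured. Of these 15, 3 read higher in all 3 pairs (beside 14.4% of all genes) and 1 lower (beside 9.11%). The 1 was ATXN2 itself. The paralogue ATXN2L stayed within -0.11 to 0.00 and was above background on 3 arrays only. PABPC1, the main cytoplasmic poly(A)-binding protein, differed by 0.05, 0.30 and -0.71, so its pairs pointed both ways. PABPC4, a related poly(A)-binding protein, read 8.70, 10.76 and 10.82 in control and 8.96, 10.82 and 11.42 in knockdown, with a mean of 0.31 (SE 0.13). EIF4G1, the scaffold that joins the cap complex to poly(A)-binding protein, differed by 0.04, 0.32 and 0.11, and LARP4, which binds poly(A), by 0.59, 0.07 and 0.49. TARDBP differed by at most 0.04 in any pair and was near background. In the list of deadenylases, P-body and stress granule genes 4 of 32 read higher (12.5%, beside 14.4% of all genes) and 4 lower (12.5%, beside 9.11%). Neither count is read as a result about the list. The deadenylase PARN (0.35, 0.19 and 0.47) and the exonuclease XRN1 (0.18, 0.17 and 0.40) were on the higher side. CNOT9 of the CCR4-NOT complex (-0.31, -0.47 and -0.54) and AGO2, the effector of small RNAs (-0.36, -0.37 and -0.22), were on the lower side.

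The aminoacyl-tRNA synthetases, which load amino acids onto tRNAs, had the highest list median. Their median mean difference was 0.57 over 18 measured genes, beside 0.02 over all genes, and their medians per pair were 1.25 (P2), 0.23 (P4) and 0.37 (P5), or 0.54, 0.26 and 0.29 as deposited. In all 3 pairs 9 of 18 read higher and 0 lower, beside the 14.4% and 9.11% of all genes, and after quantile normalization alone 14 of 18 read higher (17.5% of all genes). With P2 left out, a setting chosen after the data were seen, 14 of 18 read higher in both P4 and P5 (28.1% of all genes), 0 read lower and the median was 0.33. WARS1, the tryptophan enzyme, read 10.57, 12.05 and 10.64 in control and 13.56, 12.12 and 11.54 in knockdown, and both of its probes kept the direction. Most of its mean of 1.32 (SE 0.65) came from P2, and in P4 the arrays differed by 0.07. VARS1, the valine enzyme, read 8.95, 10.49 and 10.46 against 10.52, 10.85 and 11.41, and MARS1, the methionine enzyme, 9.50, 10.00 and 9.04 against 10.91, 10.28 and 9.44. IARS1 differed by 1.56, 0.55 and 0.15, EPRS1 by 2.44, 0.40 and 0.24, QARS1 by 1.09, 0.28 and 0.20, and KARS1 by 0.62, 0.09 and 0.67. GARS1 (2.11, 0.10 and -0.90) and FARSB (-0.31, -0.06 and 0.00) did not keep the higher direction. None of the 18 passed limma's test.

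Many synthetase genes belong to the targets of ATF4, a transcription factor made when amino acids run short or the endoplasmic reticulum is stressed. The further ATF4 targets and amino acid response genes had medians of 0.99 in P2, -0.21 in P4 and -0.02 in P5, or 0.59, -0.20 and -0.03 as deposited, and their difference from the synthetases was not tested. Their median mean difference was 0.34 with all pairs and -0.07 without P2. In all 3 pairs 5 of 33 (15.2%, beside 14.4% of all genes) read higher and 0 lower (beside 9.11%). Pair P2 carried 8 of 33 (2.81% of all genes), and 15 of 33 read lower in both P4 and P5 (17.0% of all genes). ASNS, which makes asparagine, read 9.32, 11.71 and 9.96 in control and 12.99, 11.68 and 10.22 in knockdown. Only in P2 did its arrays lie far apart, by 3.67. PHGDH, the first enzyme of serine synthesis, read 10.11, 12.81 and 11.09 against 13.03, 12.60 and 10.68, so the P2 difference of 2.93 faced -0.21 and -0.42. ATF4 itself differed by 1.74, -0.85 and 0.77 and TRIB3, a pseudokinase it induces, by 2.38, -0.63 and -0.57. The members that kept the higher direction were the transporters SLC7A1 (1.26, 0.29 and 0.33), SLC1A5 (0.40, 0.27 and 0.21) and SLC6A9 (0.99, 0.03 and 0.01) and the enzymes ALDH18A1 (0.62, 0.02 and 0.21) and ALDH1L2 (0.03, 0.17 and 0.13).

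ATF4 acts with C/EBP proteins at promoter elements with the core TGATGNAA, and the stretches below are shown because both lists had their highest medians in P2. Both strands of the 250 bases before each annotated start were searched in RefSeq promoters (GRCh38.p14), and no overlap with another motif arises because 1 motif was searched. It was found in 2 of 15 synthetase promoters in the table (13.3%), in 3 of 26 of the ATF4 list (11.5%), in 0 of 34 of the initiation factors, in 144 of the 8927 measured genes with a promoter (1.61%) and in 870 of all 27305 promoters (3.19%). Of genes higher in all 3 pairs 1.91% held it and of genes lower 2.03%, and it was in 4 of 86 promoters of genes carried higher by pair P2 (4.65%) and in 1 of 169 of those carried lower (0.592%). The ATF4 list was written from known targets, so its share is a description of the list. Capitals mark the motif, read as TTGCATCA where it lies on the opposite strand, and up to 11 bases are shown on each side, 5′ to 3′ along the gene.
ASNS, chr7:97872458-97872487, minus strand: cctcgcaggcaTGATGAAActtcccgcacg
AARS1, chr16:70289675-70289704, minus strand: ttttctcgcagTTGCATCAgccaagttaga
IARS1, chr9:92293698-92293721, minus strand: ttttcagcgcgTTGCATCAcctcc
CHAC1, chr15:40953251-40953280, plus strand: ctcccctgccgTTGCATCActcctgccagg
ATF3, chr1:212565205-212565234, plus strand: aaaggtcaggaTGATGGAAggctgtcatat
The motif begins 68 bases before the start in ASNS, 187 in AARS1 and 13 in IARS1. In P2 the 5 genes differed by 3.67 (ASNS), 2.03 (AARS1), 1.56 (IARS1), 0.41 (CHAC1) and 0.54 (ATF3). With or without the motif, 31 of 33 members of the ATF4 list and 17 of 18 synthetases read higher in P2, beside 5832 of all 11016 genes. In the same order the 5 genes differed by -0.03, 0.04, 0.55, -0.02 and -0.67 in P4 and by 0.26, 0.44, 0.15, -0.03 and -0.30 in P5.

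**Figure D3:**
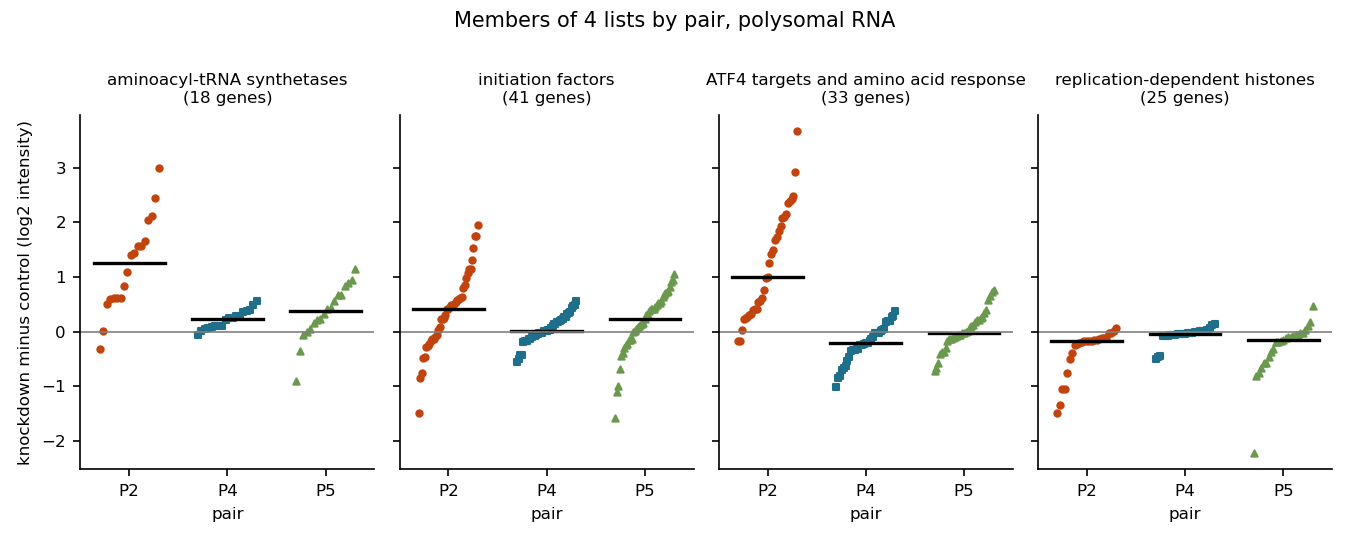
Knockdown minus control (log2 intensity) of every measured member of 4 gene lists in pairs P2, P4 and P5, sorted within each pair, with the median as a black bar. The synthetase medians lie above 0 in all 3 pairs (1.25, 0.23 and 0.37), those of the ATF4 list only in P2 (0.99), and those of the histones at -0.17, -0.04 and -0.16.

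Initiation factors, which bring the ribosome to the start codon, read higher in all 3 pairs for 11 of 41 genes (26.8%, beside 14.4% of all genes) and lower for 3 (7.32%, beside 9.11%). Their median was 0.21 (0.42, 0.02 and 0.23 by pair), and on deposited values 0.04 (-0.03, 0.07 and 0.07 by pair), so the P2 median depended on the scaling. In both P4 and P5 15 of 41 (36.6%, beside 28.1%) read higher. The members of the exchange factor eIF2B, which reloads eIF2 with GTP, included EIF2B3 (10.15, 9.29 and 9.64 in control, 10.59, 9.84 and 10.55 in knockdown), EIF2B4 (0.58, 0.02 and 0.48) and EIF2B5 (0.79, 0.17 and 0.52), while EIF2B1 and EIF2B2 pointed both ways. EIF5B, which joins the ribosomal subunits, differed by 0.63, 0.24 and 0.82, and of the scaffold eIF3 the members EIF3B (1.74, 0.11 and 1.05), EIF3C (0.61, 0.07 and 0.42) and EIF3H (1.30, 0.20 and 0.38) read higher. EIF5 (-0.13, -0.10 and -1.59), DENR, which acts in re-initiation (-0.86, -0.55 and -0.40), and the cap-complex inhibitor EIF4EBP2 (-0.28, -0.05 and -0.16) read lower. Of the elongation, release and recycling factors 4 of 16 read higher (beside 14.4% of all genes) and 0 lower (beside 9.11%). They were the translocase EEF2 (1.95, 0.08 and 0.48), the recycling factor ABCE1 (0.59, 0.39 and 0.14), ABCF1 (1.14, 0.26 and 0.41) and GSPT2 (0.30, 0.02 and 0.24).

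Replication-dependent histone genes, whose mRNAs end in a stem-loop and carry no poly(A) tail, read lower in all 3 pairs for 14 of 25 measured genes (56.0%, beside 9.11% of all genes) and higher for 0. Their median was -0.14 (-0.17, -0.04 and -0.16 by pair), and 15 of 25 (60.0%, beside 17.0%) read lower in both P4 and P5. Most lay near background, and 12 of 25 were above it on all 6 arrays. Of these 12, 8 read lower, beside 669 of all 8100 genes above background on all 6 arrays. H2AC18 read 8.85, 9.35 and 9.10 in control and 7.79, 8.91 and 8.64 in knockdown, and both of its probes kept the direction. H2AC20 read 8.42, 9.32 and 9.06 against 7.66, 8.85 and 8.48 (mean -0.60, SE 0.09). H2BC5 differed by -1.49, -0.06 and -0.81, and the brighter H2BC12 by -1.06, -0.02 and 0.47, so it did not keep the direction. Histone genes are near-identical copies and probes may read more than 1 of them, so these counts are not independent genes.

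Ribosomal protein genes were set by P2 and P5. The median of the small subunit was -0.34 (-0.30, -0.01 and -0.67 by pair) and that of the large subunit -0.20 (-0.29, 0.02 and -0.29), and as deposited they were -0.74 and -0.67. In the small subunit 6 of 26 (23.1%) read lower in all 3 pairs and 0 higher, and in the large subunit 5 of 42 (11.9%) lower and 1 higher, beside 9.11% of all genes lower. After quantile normalization alone 10 of 26 and 10 of 42 read lower, beside 9.88% of all genes. RPS12 read 12.86, 13.44 and 13.07 in control and 11.71, 13.11 and 12.45 in knockdown. RPS27, with all of its 3 probes in the same direction, differed by -1.71, -0.20 and -1.43, RPS28 by -0.99, -0.14 and -0.72, and RPL26 by -0.61, -0.36 and -1.95. RPL7A was the member on the higher side (1.80, 0.14 and 0.46). In P5 the largest differences of the list were in RPL38 (-3.09) and RPL35A (-3.02), which read 13.69 and 12.74 in the P5 control and 10.60 and 9.72 in the P5 knockdown array. Both P2 arrays also read low for these genes, at 8.65 and 7.91 for RPL38 and 9.09 and 8.02 for RPL35A, while the P4 arrays read 12.76 to 13.41. The cause of this split of arrays was not tested.

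Further lists held genes that kept their direction. Small nucleolar RNA host genes, spliced transcripts whose introns yield small nucleolar RNAs, read lower in ZFAS1 (9.44, 10.64 and 9.22 in control, 8.32, 10.21 and 8.26 in knockdown), SNHG6 (-0.95, -0.37 and -0.72), SNHG5 (-0.75, -0.42 and -0.49, both probes) and SNHG7 (-0.16, -0.37 and -0.37, both probes). With OIP5-AS1 they made 5 of 19 measured genes (26.3%, beside 9.11%) of the noncoding and host gene list, against 1 higher, SNHG11 (0.04, 0.17 and 0.21). SNHG1 (2.37, -0.57 and 0.80) and SNHG8 (0.88, -0.92 and 0.88) were among the 13 members that did not keep a direction. The median of that list was -0.16 in P2 and -0.11 in P4 but 0.11 in P5. In P5 13 of 19 read higher, beside 6780 of all 11016 genes, whose median there was 0.06. In glycolysis 4 of 19 (21.1%, beside 14.4%) read higher, HK1, PFKP, PFKM and TPI1, and HK2 read lower (-0.65, -0.13 and -0.22). In the endoplasmic reticulum list 7 of 32 (21.9%) read higher and 3 (9.38%) lower. The stress sensor ATF6 (1.36, 0.08 and 0.52) and the signal recognition subunit SRP68 (0.68, 0.26 and 0.52) were on the higher side, and the translocon-associated SSR1 (-1.78, -0.10 and -0.63) and SSR2 (-0.24, -0.11 and -1.40) on the lower. Of the mitochondrial ribosome 4 of 74 (5.41%) read higher and 9 (12.2%) lower, MRPS28 (-1.48, -0.21 and -0.63) and MRPL39 (-0.67, -0.29 and -0.96) among the latter.

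Of the megakaryocyte and platelet genes 4 of 23 (17.4%) read higher and 1 (4.35%) lower in all 3 pairs, beside 14.4% and 9.11% of all genes. STXBP2, which acts in platelet granule release, read 8.83, 10.85 and 9.58 in control and 9.24, 11.37 and 9.96 in knockdown, and NBEAL2, needed for alpha granules, differed by 0.23, 0.54 and 0.53. GP9, a subunit of the von Willebrand factor receptor, differed by -0.20, -0.03 and -0.41. Of the megakaryocyte and erythroid transcription factors 2 of 20 read higher and 0 lower, and of the erythroid and haem genes 2 of 21 and 0. The remaining lists held between 0 and 5 genes on either side, some at shares above those of all genes and some below, and none is read as a result. The counts were 1 higher and 3 lower of 22 for cholesterol synthesis, 4 and 3 of 34 for the proteasome, 2 and 4 of 24 for the chaperonin and heat shock genes, 1 and 2 of 33 for respiratory complex I, 1 and 0 of 38 for complexes II to V, 4 and 2 of 31 for S phase genes, 2 and 2 of 28 for mitosis and G2, and 4 and 3 of 35 for mTOR, autophagy and lysosome. Actin, tubulin and cytoskeleton genes had 2 higher and 5 lower of 31, polyamine and iron control 3 and 1 of 16, SRRT and nuclear cap-binding 1 and 3 of 14, immediate early and AU-rich genes 2 and 2 of 24, interferon response 2 and 2 of 21 and p53 targets 1 and 1 of 15. Markers of other blood cells had 1 and 1 of 8 (monocyte and granulocyte), 0 and 1 of 5 (lymphoid) and 1 and 2 of 8 (mast cell and basophil).

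**Figure D4:**
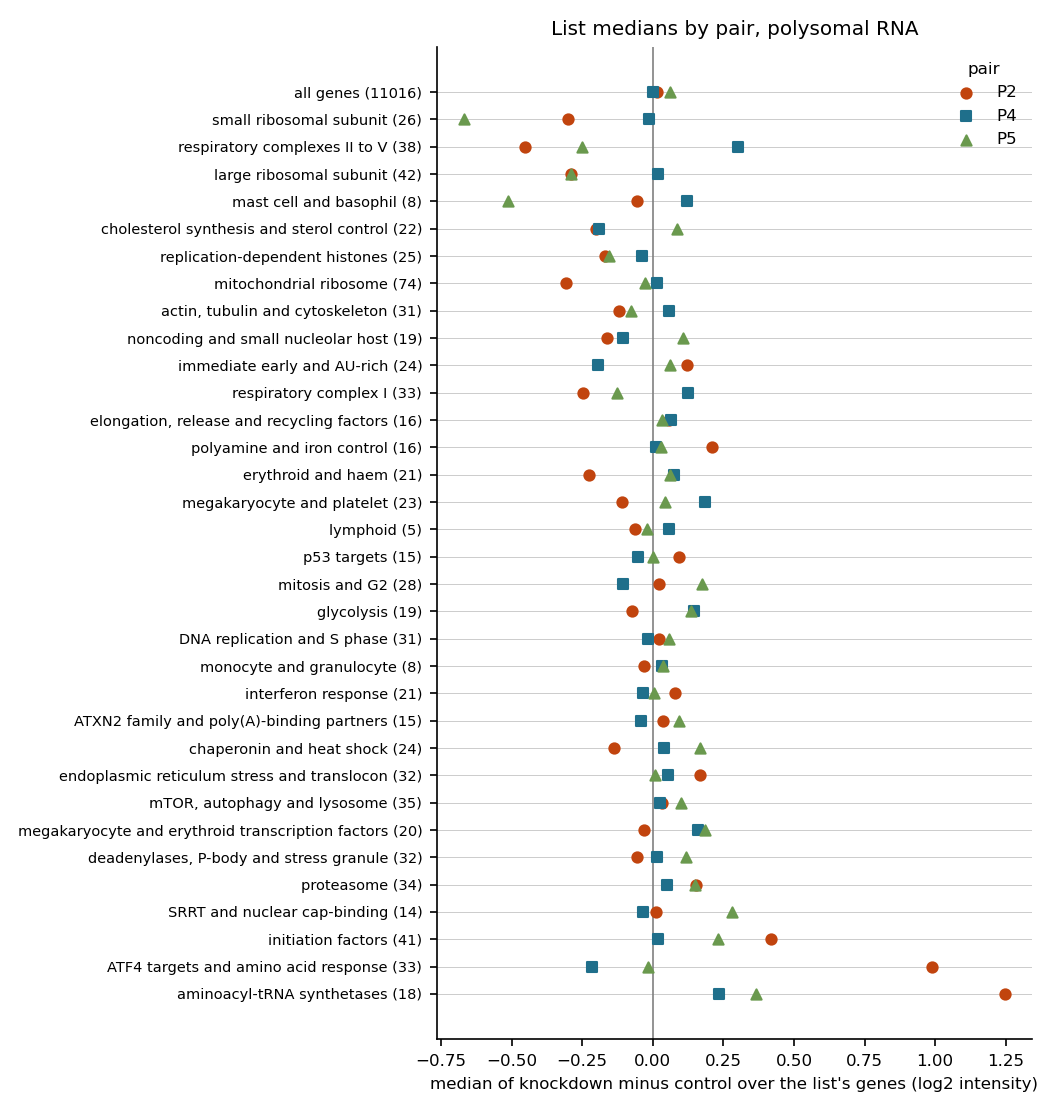
Median knockdown minus control (log2 intensity) over the measured genes of each list in pairs P2, P4 and P5, with the number of genes in parentheses and all 11016 genes at the top. The synthetases stand highest at the bottom of the plot with P2 at 1.25, and P4 lies within -0.21 to 0.30 for every list.

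Genes carried by 1 pair differed by at least 1 there while both other pairs moved by at most 0.25 in that direction, in both scalings. A gene whose pairs opposed each other could therefore count for more than 1 pair. P2 carried 309 of 11016 genes (2.81%), of which 100 (0.908%) read higher and 209 (1.9%) lower. P4 carried 6 (0.0545%) and P5 57 (0.517%). These values chose the genes and are a description. For the 209 genes lower in P2, the P2 control array was the highest of the 6 arrays in 182 (87.1%) and the P2 knockdown array the lowest in 48 (23.0%). Their median level was 11.05 on the P2 control and 9.14 to 9.85 on the other 5 arrays. For the 100 genes higher in P2 the knockdown array was the highest in 64 and the control array the lowest in 52. In the subpolysomal arrays, which the choice did not use, 118 of the 209 (56.5%) read higher in both pairs, beside 25.2% of all genes, and 42 of the 100 (42.0%) read lower in both, beside 26.3%. The direction there was opposite to that in P2.

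Among the genes carried by P2, XBP1, the transcription factor of the unfolded protein response, read 9.70 on the control and 13.46 on the knockdown array of P2, and its pair differences were 3.76, -0.59 and 0.01. The calcium-binding protein S100P differed by 3.66, -0.03 and -1.23, and INHBE, an inhibin beta chain, by 2.60, -1.13 and -0.37. On the lower side LMOD3, a leiomodin that nucleates actin filaments, read 11.54, 9.50 and 8.80 in control and 8.27, 9.30 and 8.56 in knockdown. NTS, the neurotensin precursor, differed by -2.52, 0.27 and 0.03, the tubulin gene TUBB2A by -2.39, 0.09 and 0.64, and UQCRH of respiratory complex III by -2.39, 0.44 and 0.83. For XBP1 and LMOD3 the control array of P2 was an extreme of the 6, as ACTB was in that array.

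P4 carried 4 genes higher (0.0363%) and 2 lower (0.0182%). GP6, the platelet collagen receptor, read 7.95, 8.35 and 9.37 in control and 7.86, 9.50 and 8.10 in knockdown, so P4 (1.15) and P5 (-1.28) opposed each other. MPP1, a membrane scaffold of red cells, differed by -0.62, 1.16 and -0.56, and SH3BGRL3 by -0.16, 1.10 and -0.10. ATP5F1EP2, a copy of an ATP synthase subunit gene whose probe may read both, differed by -1.90, 1.04 and -1.27. DUSP1, an immediate early phosphatase of MAP kinases, read 8.14, 10.48 and 8.65 against 8.25, 8.99 and 8.85. The tubulin gene TUBB2B differed by 0.03, -1.10 and 1.37 and was therefore carried by P4 on the lower and by P5 on the higher side.

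P5 carried 22 genes higher (0.2%) and 35 lower (0.318%). LGALS1, the lectin galectin-1, read 9.13, 12.04 and 11.73 in control and 9.05, 12.56 and 8.91 in knockdown. HSPA9, the mitochondrial heat shock protein, read 8.52, 11.67 and 11.20 against 8.44, 11.73 and 8.39. In both genes the P5 knockdown array lay with the 2 P2 arrays and the P5 control with the 2 P4 arrays. The transcription factor YY1 (0.32, 0.49 and -2.04) shared this order, and RPS25 (-0.18, -0.03 and -2.50) read 10.87 on the P5 knockdown array, between the P2 arrays at 8.64 and 8.82 and the other 3. Over the 35 genes the median level was 8.11 and 8.08 on the P2 arrays, 8.46 on the P5 knockdown array and 9.74 to 9.83 on the other 3. On the higher side beta-globin (HBB) differed by -2.28, 0.01 and 1.51, with 10.85 on the P2 control array, and it met the rule in P2 on the lower side as well. The cause of this order was not tested.

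**Figure D5:**
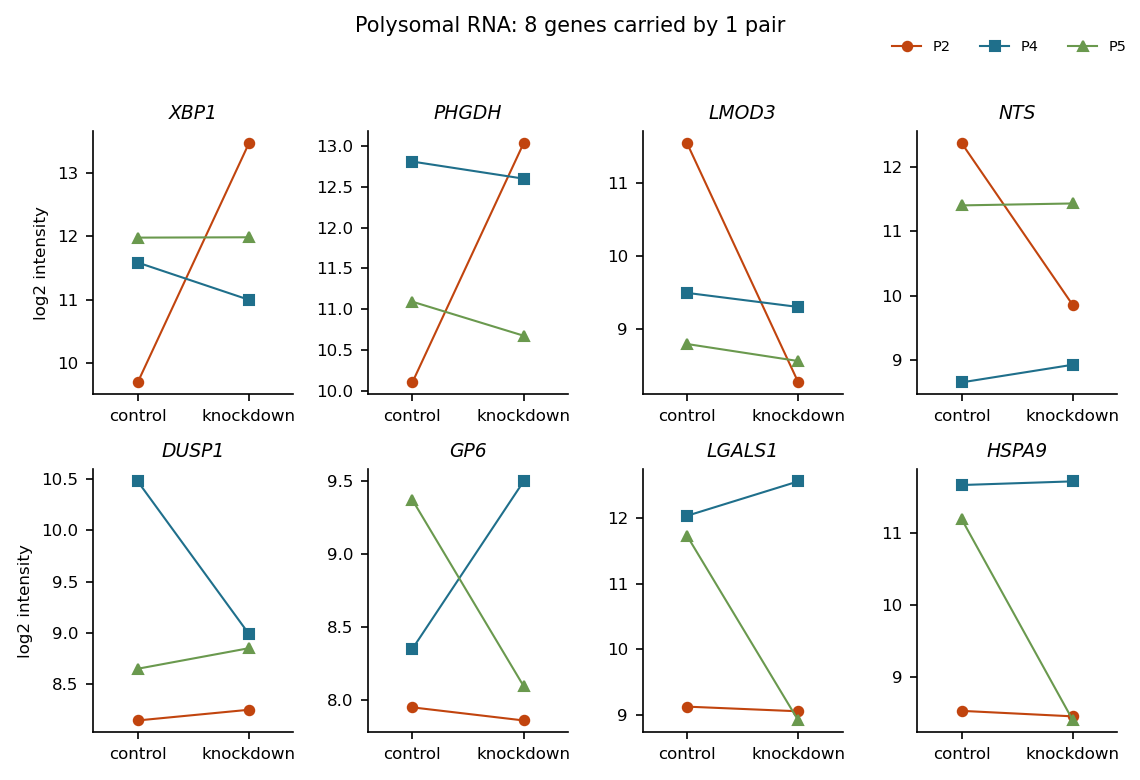
Log2 intensity of 8 genes carried by 1 pair in control and knockdown polysomal RNA, with a line for each pair and y axes that differ between genes and do not start at 0. XBP1, PHGDH, LMOD3 and NTS move in P2, DUSP1 in P4, GP6 in P4 with P5 opposed (1.15 and -1.28), and LGALS1 and HSPA9 in P5.

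The knockdown difference was also set against that in subpolysomal RNA. limma on all 10 arrays with the P number as a block called 0 of 18790 probes (0.0%) for a difference between the pools, with 652 at an unadjusted p under 0.05. ATXN2 differed by -0.32 (P1) and -1.20 (P3) in subpolysomal RNA. NCK2 (-0.45 and -0.61), BASP1 (-0.21 and -0.22), RAMAC (-0.17 and -0.20) and FAM32A (-0.88 and -0.21) read lower in both subpolysomal pairs too, while PFKP (0.10 and -0.11) and ITGA5 (-0.24 and 0.34) pointed both ways there.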

How the data were processed

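The authors deposited 1 processed probe intensity per probe and array on a linear scale. Their normalization is not stated in the labels or headers, and R 2.15 is named per the submitters' processing notes. A further table with 20 columns whose headings match no label was not used, so the neqc correction considered in the design was not run. Log2 values of the deposited intensities were made alike in distribution (quantile normalization, 6 polysomal arrays) with limma 3.58.1 in R 4.3.3. The background limit was the 0.05 upper tail of each array's distribution below its mode, mirrored. Probes were named through the platform annotation, with symbols updated to RefSeq (GRCh38.p14): 30113 probes had 1 symbol, 8 several and 17202 none, and 30074 of the named probes were in RefSeq. limma (lmFit, eBayes) was fitted with the P number as a block and Benjamini-Hochberg adjustment over all kept probes, two-sided. Arrays were paired by these numbers. Deviations from the group means of same-numbered arrays correlated at 0.77 (P2), 0.77 (P4) and 0.48 (P5), and those of differently numbered arrays at -0.71 to 0.27. Deviations within a group sum to 0, which ties these correlations to each other, so they do not settle the pairing. The fit was tested on simulated data. Genes were named by rule: ATXN2 and its partners, the 12 steadiest genes per direction, up to 4 genes per pair and direction among those carried by 1 pair, and in each list the 3 steadiest and the 2 largest members. Genes named outside it, such as further members of the counted lists, ACTB and the genes with a promoter motif, were chosen after their values were seen. The 33 lists hold 1007 genes, of which 843 were measured. Members, lists and rules were chosen with earlier results of these data known. The number of arrays limits the precision.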

Additional observations from a re-analysis of the deposited data

Results flagged for a closer look

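For 4 of the steadiest genes both subpolysomal pairs moved against all 3 polysomal pairs. The polysomal minus subpolysomal difference of the knockdown effect was 0.78 for L3MBTL2, with -0.24 (P1) and -0.10 (P3) in subpolysomal RNA. It was 0.97 for CTPS1 (-0.46 and -0.17), 0.73 for ASCC3 (-0.15 and -0.09) and 1.53 for HK1 (-0.44 and -0.11). limma's test of the difference between the pools called none of them among 18790 probes.

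For 3 lists, after quantile normalization, the medians of all 3 polysomal pairs had one sign and those of both subpolysomal pairs the other. The difference between pools of a list median was not tested. As deposited, only the histones of these lists kept one sign in the polysomal pairs (-0.19, -0.03 and -0.18). The deposited pair medians were -1.07, 0.13 and -0.84 for the small ribosomal subunit and -0.10, 0.04 and -0.04 for polyamine and iron control. The small ribosomal subunit had a median over mean differences of -0.34 in polysomal RNA and subpolysomal medians of 0.11 and 0.0033. The replication-dependent histones had -0.14 and 0.025 and 0.033. For polyamine and iron control genes the 3 polysomal pair medians were positive (0.21, 0.01 and 0.03) and the subpolysomal ones -0.17 and -0.096, while the median of the genes' mean difference was -0.025, so the median over means and the medians per pair differ in sign.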

How the results depend on the processing

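limma called 0 probes under every alternative run for knockdown against control, with 108 to 1820 at an unadjusted p under 0.05, and 0 for the difference between pools with and without the replicate block (71 without). Without the replicate block 190 probes had an unadjusted p under 0.05. ATXN2 stayed negative under every alternative, with -1.14 as deposited and -1.56 to -0.78 with a pair left out. With no filter on dim probes 2627 genes read higher and 2070 lower in all pairs. With a minimum in every pair the counts were 525 and 273 at 0.1, 122 and 71 at 0.25, and 5 and 10 at 0.5. With a pair left out they were 2447 to 3318 higher and 1878 to 2368 lower, where fewer pairs have to share a sign. Pair P2 carried 796 genes on deposited values and 818 after median centring, where 1 scaling is required in place of 2. With another pair left out P2 carried 365 to 541, P4 7 to 12 and P5 73 to 198, which also asks less. With at least 1.5 in the leading pair P2 carried 78, P4 0 and P5 9. Without the block and the P2 knockdown array ASCC3 reversed to -0.050 and GAL to 0.22, with the P2 control array still in the fit. List medians changed sign on deposited values for the proteasome (0.12 to -0.17), the chaperonin and heat shock genes (0.06 to -0.38) and glycolysis (0.03 to -0.12). The cause was not tested. The tRNA synthetase, initiation factor and histone counts in pairs P4 and P5, and the histone count above background on all 6 arrays, were alternatives chosen after seeing the data.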
